A study of Mus musculus with 6 samples.

Results

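The genes described here are solute carriers of 11 families that move organic solutes and phosphate across cell membranes. They were taken by symbol: every gene of the families Slc5, Slc6, Slc7, Slc13, Slc16, Slc17, Slc22, Slc23, Slc34, Slc36 and Slc47 whose name ends in a number, which gave 106 of the 19938 genes tested. RefSeq holds 111 such genes, and 5 of them were not analysed here. RNA of whole kidneys from mouse embryos at E14.5 was measured on 6 arrays, 3 for pools labelled Foxd1 null and 3 for pools of wild type littermates. Heterozygous Foxd1 parents gave 3 litters, and each pool joined 2 kidney pairs of different litters, so the pools share litters and are not fully independent. Foxd1 is a forkhead transcription factor of the kidney stroma, and the mutation is in the germline, so every cell of a null embryo carries it.

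In the kidney, filtered glucose, amino acids, phosphate, sulfate, carboxylates and vitamins are taken back by the proximal tubule, mostly by carriers of its brush border that are driven by the sodium gradient. Other carriers of the same cells take organic anions and cations, drugs among them, from the blood side and release them into the urine. The Slc families are defined by sequence and are not specific to the kidney. They also hold the neurotransmitter transporters of neurons and carriers by which most cells take up amino acids or exchange lactate. At this stage of development nephrons are still forming and proximal tubules have only begun to differentiate.

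The Foxd1 row itself stood at 10.05, 9.77 and 9.71 on the log2 scale in the pools labelled null and at 9.40, 9.55 and 9.69 in wild type, so it was not lower in the null pools. What the allele lacks of the gene is not known here, so the row does not check the labels, and directions below are between pools as labelled. Of 8 kidney markers 7 lay above the median signal of all genes, Wnt11 being the exception. By the test used below Pax8 (difference -0.77, adjusted p = 0.00606) and Wt1 (difference -0.34, adjusted p = 0.0444) fell. Six2 (difference -0.43) and Pax2 (difference -0.21) did not pass but were lower in all null pools, and Ret (difference 0.34) and Foxd1 (difference 0.30) were higher in all. Of all genes 0.767% passed as lower and 1.64% as higher. In 8.04% of all genes every null pool lay below every wild type pool, and in 11.5% above.

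Of the 106 transporters, 4 were lower in the Foxd1 null pools and 1 was higher at an adjusted p under 0.05 (limma, adjusted over all 19938 genes). The 4 that fell are carriers of tubule cells: Slc5a1 for glucose, Slc6a13 for GABA and taurine, Slc7a9 for cystine and basic amino acids, and Slc34a1 for phosphate. The 1 that rose was Slc16a3, through which glycolytic cells release lactate. The lower share was 3.77%, against 0.767% of all genes, and the higher share was 0.943%, against 1.64%. In both directions together 2.4% of all genes passed. These calls were not stable: 0 of the 5 passed when all 35556 array rows were tested together (adjusted p of Slc5a1 0.0613), and 4 of the 6 fits on 5 pools kept only Slc5a1 among the 4 that fell. At an unadjusted p under 0.05 stood 18 of the 106 (17%), against 14.1% of all genes. These RNAs come from whole organs, so fewer cells of a type and less RNA per cell cannot be told apart.

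Differences in this set were small. The 106 log2 differences (null minus wild type) ran from -0.63 to 0.68 with a median of -0.03, while the median over all genes was 0.01. A difference of 1.5-fold or more was reached by 3 transporters and of 2-fold or more by 0, where 103 of all genes (0.517%) reached 2-fold. For 95 of the 106 the whole 95% interval lay within 1.5-fold either way, and for 105 within 2-fold. In 14 transporters (13.2%) all null pools lay below all wild type pools, against 8.04% of all genes, and in 7 (6.6%) all lay above, against 11.5%.

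Signals of these genes were mostly dim. For 80 of the 106 the row lay in the lower 50% of all genes by its mean over the 6 pools, and for 30 in the lowest 25%. Brightness also depends on the probes of a row and ranks no transporter against another. Only Slc7a9 of the 106 appears in the authors' deposited table of 488 rows, which gives it a signed fold of -1.66 with p = 0.00745. The same table lists p-values for expression of 0.231 in wild type and 0.441 in null for it, so by that measure it was not above background in either genotype, and its fold is uncertain.

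**Figure D1:**
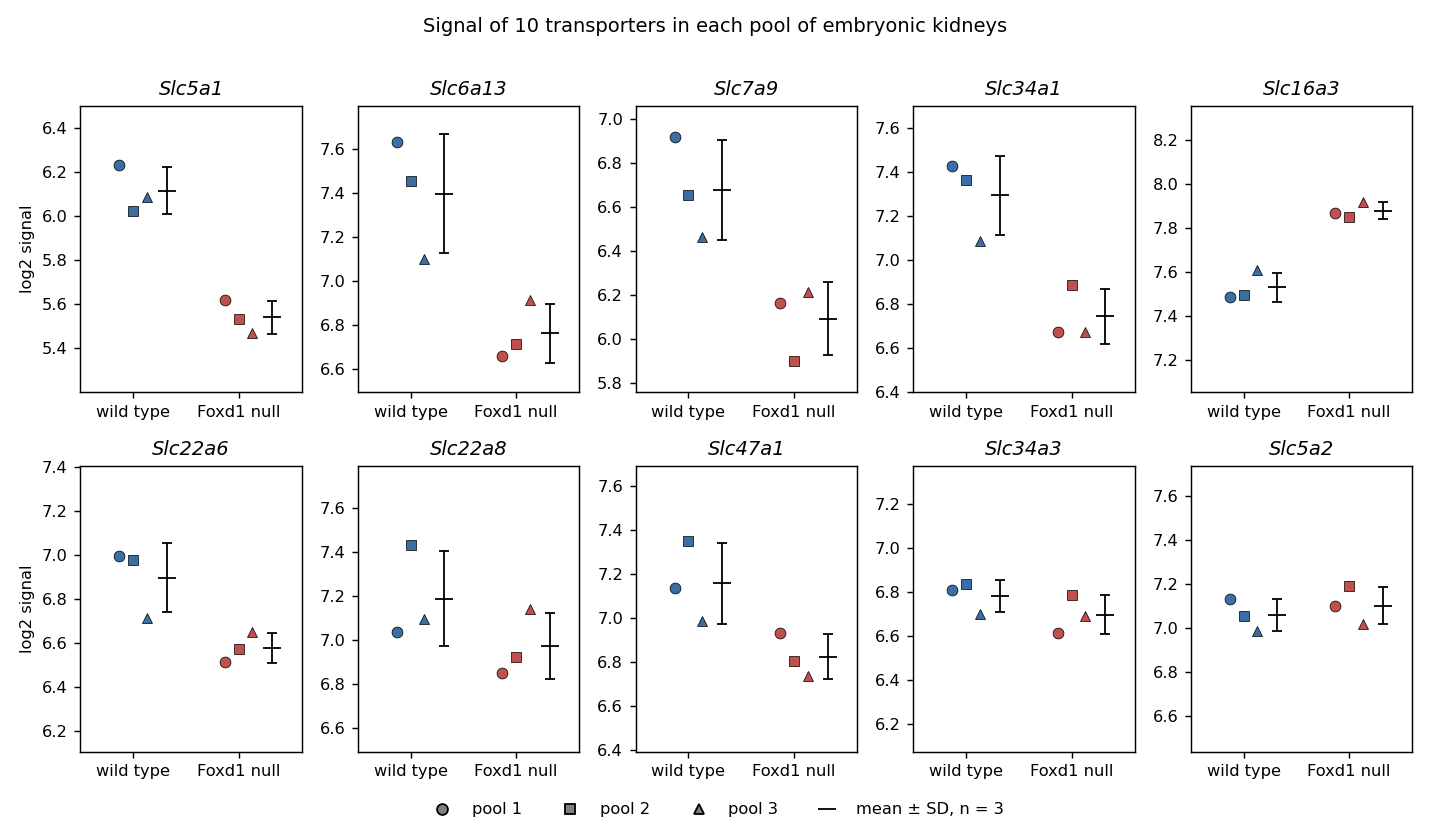
Log2 signal (y axis, scaled separately per gene) of 10 transporters in each wild type and Foxd1 null pool, 1 symbol shape per pool number, with the mean ± SD of 3 pools in black. In Slc5a1, Slc6a13, Slc7a9 and Slc34a1 all 3 null pools lie below all 3 wild type pools, in Slc16a3 all lie above, and Slc34a3 and Slc5a2 overlap.

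Slc5a1 is the high-affinity sodium-glucose cotransporter, which takes up the glucose left in the late proximal tubule and also serves the intestine. Its log2 signal was 5.62, 5.53 and 5.47 in the null pools, given here and below in the order 1 to 3, against 6.23, 6.02 and 6.09 in wild type. The groups did not overlap, and their nearest pools lay further apart than any pools of 1 genotype. The difference was -0.57 (SE 0.08, 1.49-fold lower, n = 3 per group, adjusted p = 0.00674). Slc5a1 was the only one of the 5 that passed in every fit without 1 of the 6 pools (highest adjusted p 0.0397). Its row is in the lowest 25% of signals.

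The other 10 measured members of Slc5 did not pass. Slc5a2, the low-affinity transporter that takes back most filtered glucose in the adult kidney, stood at 7.10, 7.19 and 7.02 in null and 7.14, 7.05 and 6.99 in wild type pools. Those groups overlap, and the difference was 0.04 (95% interval -0.13 to 0.22). Whether the genotype difference of Slc5a1 exceeds that of Slc5a2 was not tested. Slc5a3, which takes up the osmolyte myo-inositol, differed by -0.01 (95% interval -0.21 to 0.19) and had the brightest row of the family. The median of the 11 Slc5 differences was -0.01.

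Slc6a13 is a sodium- and chloride-driven transporter of GABA, betaine and taurine found in kidney, liver and the coverings of the brain. Its signal was 6.66, 6.71 and 6.91 in the null pools and 7.63, 7.45 and 7.10 in the wild type pools. Wild type pool 3 lay near the null pools, but the groups did not overlap. The difference was -0.63 (SE 0.13, 1.55-fold lower, adjusted p = 0.0379), the largest fall of the 106. It passed only without wild type pool 3 among the fits that left out 1 pool (adjusted p 0.00963, and up to 0.142 in the others). Liver markers, given below, stood higher in null pool 3, which was also the highest of the null pools for Slc6a13, and their part in the result was not tested.

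Among the 17 other members of Slc6, 0 passed and 0 had an unadjusted p under 0.05 in limma. The brush border transporter of neutral amino acids, Slc6a19, stood at 5.66, 5.76 and 6.09 in null and 6.18, 6.002 and 5.93 in wild type pools. Null pool 3 lay between wild type pools 1 and 2, and the difference was -0.20 (95% interval -0.46 to 0.06, adjusted p = 0.497). The taurine transporter Slc6a6, the brightest row of the family, differed by 0.05 (95% interval -0.16 to 0.27). The median of the 18 differences was -0.05.

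Slc7a9 is the light chain that works with Slc3a1 in the brush border to take up cystine and basic amino acids, and its loss causes cystinuria. Its signal was 6.16, 5.90 and 6.21 in the null pools and 6.91, 6.65 and 6.46 in the wild type pools. All null pools were lower, with wild type pool 3 the nearest to them. The difference was -0.59 (SE 0.12, 1.501-fold lower, adjusted p = 0.0416). It too passed only without wild type pool 3 among the fits on 5 pools (adjusted p up to 0.147 in the others). The partner Slc3a1 differed by -0.24 (SE 0.08, adjusted p = 0.193), with null pools at 6.66, 6.48 and 6.54 and wild type pools at 6.89, 6.78 and 6.74.

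The other 14 members of Slc7 did not pass, and their differences went either way. With Slc7a9, 5 of the 15 (33.3%, against 14.1% of all genes) had an unadjusted p under 0.05 in limma. Slc7a2, a carrier of arginine and lysine, had a difference of 0.40 (SE 0.10, adjusted p = 0.0756) with null pools at 7.30, 7.57 and 7.48 and wild type pools at 6.96, 6.98 and 7.21. Its groups did not overlap, and it was named after its values were seen. The brightest row was that of Slc7a6, an exchanger of basic for neutral amino acids, with a difference of -0.01 (95% interval -0.20 to 0.18). Slc7a14 had the largest positive difference of all 106 transporters, 0.68 (SE 0.22, adjusted p = 0.185), and was also chosen after its values were seen. It stood at 6.32 in null pool 1 against 7.22 and 7.32 in null pools 2 and 3, and at 6.11, 6.30 and 6.41 in wild type. Neuron markers stood higher in the same null pools 2 and 3, and their part in the value of Slc7a14 was not tested. Slc7a14 passed without null pool 1 (difference 1.00, adjusted p = 0.00133).

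Slc34a1 is the sodium-phosphate cotransporter that recovers most filtered phosphate, and parathyroid hormone and FGF23 remove it from the brush border. Its signal was 6.67, 6.89 and 6.67 in the null pools and 7.43, 7.36 and 7.09 in the wild type pools. The groups did not overlap, with null pool 2 and wild type pool 3 nearest to each other. The difference was -0.55 (SE 0.11, 1.46-fold lower, adjusted p = 0.0268). It passed in 2 of the 6 fits that left out 1 pool (adjusted p 0.014 to 0.129). The other renal phosphate cotransporter of the family, Slc34a3, stood at 6.61, 6.79 and 6.69 in null and 6.81, 6.84 and 6.70 in wild type pools, which overlap. Its difference was -0.08 (95% interval -0.26 to 0.09), and the difference from Slc34a1 was not tested. Outside the family, the phosphate transporters Slc20a1 and Slc20a2, which most cells make, differed by 0.03 (SE 0.09) and 0.03 (SE 0.08).

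Promoter sequence is shown for the 4 transporters that fell, because Hnf4a, a transcription factor of the proximal tubule, also fell (below). RefSeq promoters (build GRCm38.p6) were found for 79 of the 106 genes, and the 250 bases before each start were searched on both strands for CAAAGTCCA, a site of HNF4, the protein of Hnf4a. The stretches below run 5′ to 3′ on the strand of the gene up to the base before the start. A match would stand in capitals, and none of these stretches holds one.

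Slc5a1 (chr5:33103969-33104218, + strand): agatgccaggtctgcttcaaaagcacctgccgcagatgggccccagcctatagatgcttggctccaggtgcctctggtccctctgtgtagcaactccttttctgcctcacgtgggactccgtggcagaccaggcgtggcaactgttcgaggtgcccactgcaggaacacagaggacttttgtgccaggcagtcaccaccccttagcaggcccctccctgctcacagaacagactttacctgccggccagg
Slc6a13 (chr6:121300038-121300287, + strand): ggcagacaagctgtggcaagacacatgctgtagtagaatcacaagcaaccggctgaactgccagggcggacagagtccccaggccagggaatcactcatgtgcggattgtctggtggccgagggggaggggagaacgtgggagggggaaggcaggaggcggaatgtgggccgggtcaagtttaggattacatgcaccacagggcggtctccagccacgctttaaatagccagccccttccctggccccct
Slc7a9 (chr7:35448842-35449091, + strand): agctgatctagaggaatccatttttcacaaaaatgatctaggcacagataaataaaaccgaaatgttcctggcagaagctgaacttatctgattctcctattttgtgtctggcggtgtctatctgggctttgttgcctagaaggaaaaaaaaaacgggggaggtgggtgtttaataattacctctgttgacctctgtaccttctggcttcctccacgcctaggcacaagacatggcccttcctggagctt
Slc34a1 (chr13:55399398-55399647, + strand): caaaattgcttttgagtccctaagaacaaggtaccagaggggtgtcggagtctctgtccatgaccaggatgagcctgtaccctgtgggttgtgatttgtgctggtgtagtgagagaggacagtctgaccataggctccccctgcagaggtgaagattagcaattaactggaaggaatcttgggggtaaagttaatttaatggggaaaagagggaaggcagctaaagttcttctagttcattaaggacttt

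Slc6a13 has 3 annotated starts in the table and Slc7a9 has 2, and the first listed is shown for each. CAAAGTCCA was before any start in 0 of the 79 genes, in 0 of the 28 among them known from renal tubules, and in 0.5% of the 15614 genes tested that have a promoter in the table. No match says only that these letters are not in the window searched. Whether Hnf4a acts on these transporters was not tested.

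Slc16a3, the 1 transporter that rose, exports lactate from glycolytic cells and needs the partner Bsg to reach the membrane. Its signal was 7.87, 7.85 and 7.92 in the null pools and 7.49, 7.50 and 7.61 in the wild type pools. The pools of each genotype lay close together and did not overlap. The difference was 0.35 (SE 0.07, 1.27-fold higher, adjusted p = 0.0385), but it passed in 0 of the 6 fits that left out 1 pool (adjusted p 0.0535 to 0.18). Bsg differed by -0.01 (SE 0.07).

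The other 12 members of the monocarboxylate family Slc16 did not pass. With Slc16a3, 4 of the 13 (30.8%, against 14.1% of all genes) had an unadjusted p under 0.05 in limma. Slc16a1, which carries lactate in and out of most cells, had null pools at 7.28, 7.26 and 7.44 and wild type pools at 7.49, 7.50 and 7.64. All null pools were lower, by 0.22 on average (difference -0.22, SE 0.08, adjusted p = 0.255), the opposite sign to Slc16a3. Slc16a12, named after its values were seen, came closest to the threshold, with null pools at 6.21, 6.09 and 6.28 and wild type pools at 6.69, 6.65 and 6.43. Its difference was -0.39 (SE 0.09, adjusted p = 0.0607), and it passed under 5 of the 9 other processing settings. Slc16a4, the brightest row, differed by 0.08 (95% interval -0.08 to 0.23).

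**Figure D2:**
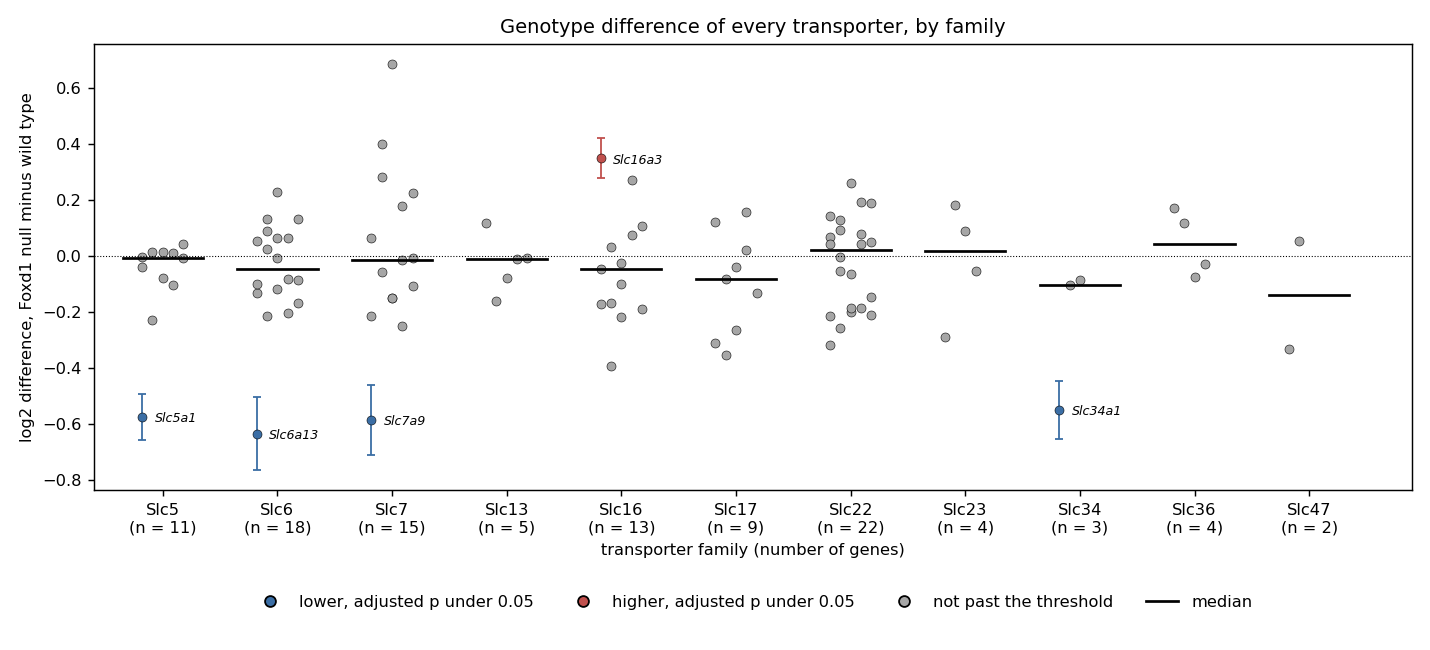
Log2 difference, Foxd1 null minus wild type (y axis), of all 106 transporters by family (x axis), each point a gene, with SE bars on genes past the threshold and a bar at each family's median. The medians of the 11 families lie between -0.14 and 0.04, and the 5 genes past the threshold stand in Slc5, Slc6, Slc7, Slc16 and Slc34.

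In the 22 measured members of Slc22, which carry organic anions, cations and carnitine, 0 passed in limma and 3 (13.6%) had an unadjusted p under 0.05, near the 14.1% of all genes. Slc22a6, which takes organic anions and many drugs from the blood into proximal tubule cells, stood at 6.52, 6.57 and 6.65 in null and 6.998, 6.98 and 6.72 in wild type pools. All null pools were lower, wild type pool 3 only slightly above them, and the difference was -0.32 (SE 0.09, adjusted p = 0.133). Slc22a8, an organic anion transporter of the same membrane, stood at 6.85, 6.92 and 7.14 in null and 7.04, 7.43 and 7.10 in wild type pools. These groups overlap (difference -0.22, 95% interval -0.48 to 0.05). The brightest row, Slc22a17, a receptor for lipocalin-2, differed by 0.08 (95% interval -0.09 to 0.25). The median of the family was 0.02. Several Slc22 genes are close copies of each other, such as Slc22a29 and Slc22a30, which also share a row that was not used, so their single rows are uncertain.

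Slc47a1, a proton-coupled exporter that releases organic cations into the tubule lumen, had null pools at 6.94, 6.80 and 6.74 and wild type pools at 7.14, 7.35 and 6.99. The groups did not overlap, but the difference of -0.33 (SE 0.10) did not pass (adjusted p = 0.155). Slc47a2 differed by 0.05 (SE 0.10).

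Slc23a1, which takes up vitamin C across epithelia, had null pools at 6.84, 6.87 and 7.10 and wild type pools at 7.30, 7.29 and 7.10. Null pool 3 and wild type pool 3 were nearly equal, and the difference was -0.29 (SE 0.09, adjusted p = 0.181). Its relative Slc23a2, which supplies vitamin C to most other tissues, differed by 0.18 (95% interval -0.08 to 0.44), with null pool 3 highest at 8.69. In Slc23 0 of 4 genes passed in limma and 1, Slc23a1, had an unadjusted p under 0.05, where 14.1% of all genes did.

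In Slc17, 0 of 9 passed in limma and 1 (11.1%, against 14.1% of all genes) had an unadjusted p under 0.05. That gene, Slc17a4, named after its values were seen, had null pools at 5.92, 6.10 and 5.93 and wild type pools at 6.36, 6.31 and 6.22. Its groups did not overlap (difference -0.31, SE 0.08, adjusted p = 0.0901). Slc17a1 and Slc17a3, transporters of urate and other organic anions at the proximal tubule surface, differed by -0.35 (SE 0.19) and -0.26 (SE 0.16). Slc17a1 was uneven in the null pools, at 5.93, 5.34 and 6.29, around wild type pools at 6.29, 6.24 and 6.10. Slc17a3 was at 6.05, 6.09 and 5.90 in null and 5.87, 6.57 and 6.39 in wild type pools, so wild type pool 1 was the lowest of all 6. The lysosomal sialic acid exporter Slc17a5 was the brightest row and differed by 0.12 (SE 0.11).

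In Slc13, carriers of sulfate and of carboxylates such as citrate, 0 of 5 passed and 0 had an unadjusted p under 0.05. The brush border sulfate transporter Slc13a1 stood at 5.36, 5.42 and 5.38 in null and 5.86, 5.53 and 5.25 in wild type pools, where wild type pool 3 was the lowest of the 6 (difference -0.16, 95% interval -0.46 to 0.13). Slc13a4, another sulfate transporter, had the brightest row and differed by -0.01. In Slc36, amino acid transporters of lysosomes and plasma membranes, 0 of 4 passed and 0 had an unadjusted p under 0.05. There Slc36a1 had the largest difference, 0.17 (95% interval -0.02 to 0.36), and Slc36a4 was the brightest and differed by 0.12 (95% interval -0.04 to 0.28).

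Read by role in place of family, 37 of the 106 are known from renal tubules, 11 from neurons, 12 supply nutrients to most cells and 3 take up osmolytes, while 43 were put on no list. All 4 transporters that fell are on the tubule list (4 of 37, or 10.8%, against 0.767% of all genes), 0 of 37 rose, and 33 did not pass. Of the 37, 28 lay below 0 and 9 above, with a median of -0.15, where 9080 of the 19938 genes lay below 0. The neuronal list had 0 of 11 past the threshold, 0 with an unadjusted p under 0.05 in limma, and a median of -0.08. The nutrient list had 1 of 12 higher, Slc16a3 (8.33%, against 1.64% of all genes), and a median of 0.05. In limma 5 of these 12 (41.7%) had an unadjusted p under 0.05, in either direction. That compares with 8 of the 37 on the tubule list (21.6%), all 8 of them lower in null, and 14.1% of all genes. In 4 of the 12 (33.3%) all null pools lay above all wild type pools, against 11.5% of all genes, and in 1 (8.33%) below, against 8.04%. On the tubule list all null pools lay above in 1 of 37 (2.7%) and below in 7 (18.9%). The 258 other Slc genes on the array had 2 higher and 2 lower (0.775% in each direction) and a median of 0.02. No test compared the lists with each other. The lists here and below were chosen with earlier results of these data known, so their shares are not independent evidence.

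**Figure D3:**
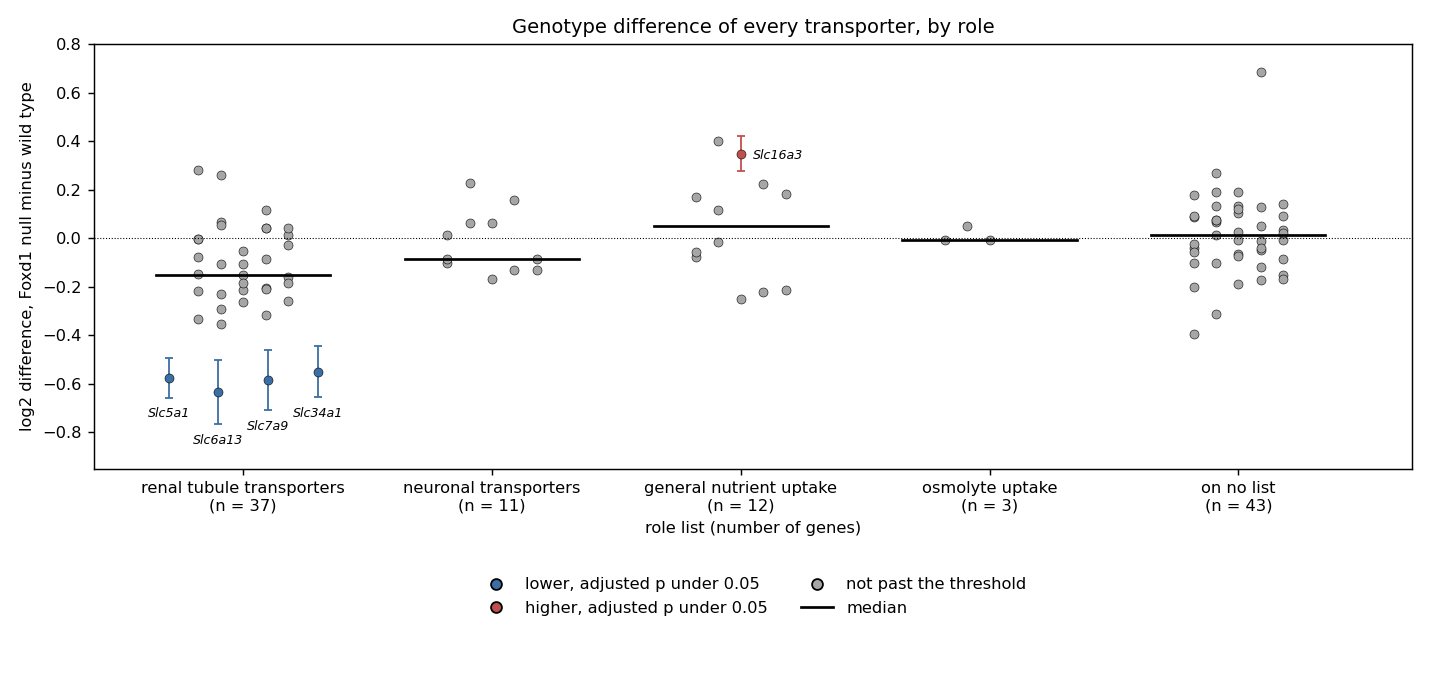
Log2 difference, Foxd1 null minus wild type (y axis), of the 106 transporters grouped by role (x axis), each point a gene, with SE bars on the 5 genes past the threshold and a bar at each list's median. The renal tubule list has its median at -0.15 and holds all 4 transporters that fell, and the neuronal and nutrient medians are -0.08 and 0.05. The lists were chosen with earlier results of these data known.

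Single pools of both genotypes ran low on the tubule list. Wild type pool 3 had the lowest wild type value in 26 of the 37 genes, and null pool 1 the lowest null value in 22. The list's median deviation from each gene's own mean was -0.03 in wild type pool 3, 0.11 in pool 1 and 0.15 in pool 2, against -0.12, -0.02 and -0.05 in null pools 1, 2 and 3. Wild type pool 3 thus lay within the range of the null pools on this measure. Without it 5 transporters fell, and 4 of them were those named above. Proximal tubule markers stood at -0.10 in wild type pool 3 against 0.22 and 0.35 in pools 1 and 2, and -0.25, -0.28 and 0.07 in null pools 1, 2 and 3. Of those 10 markers 4 fell (40%, against 0.767% of all genes) and 1 rose (10%, against 1.64%). Lrp2, the endocytic receptor megalin, fell by 1.59 (SE 0.20). Gatm, an enzyme of creatine synthesis, rose by 0.94 (SE 0.14, adjusted p = 0.00911).

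Marker lists of other cell types and tissues also differed between pools. For comparison, 10858 of all 19938 genes lay above 0, 1.64% passed as higher and 14.1% had an unadjusted p under 0.05 in limma. In 11.5% of all genes every null pool lay above every wild type pool. Of 9 measured neuron markers 9 lay above 0, 7 had an unadjusted p under 0.05 in limma and 2 passed. Their median difference was 1.18. Their median deviations were 1.24 and 0.84 in null pools 2 and 3, -0.59 in null pool 1 and -0.92 to -0.32 in wild type. Adrenal cortex (6 genes) and liver (7 genes) markers stood at 1.57 and 1.56 in null pool 3 and between -0.46 and 0.14 in the other 5 pools. Of 8 skeletal muscle markers 7 lay above 0, 4 had an unadjusted p under 0.05 and 1 passed, with a median difference of 0.52. All 6 endothelial markers were higher in every null pool than in any wild type pool, with an unadjusted p under 0.05 for 6 and a median difference of 0.46, and 3 passed. Of macrophage, erythroid and glial markers 0 of 6, 0 of 5 and 0 of 4 passed in limma, with 3, 2 and 2 at an unadjusted p under 0.05. The part of these cells in the transporter values was not tested. The list of 11 neuronal transporters had median deviations of -0.17, 0.06 and 0.08 in null pools 1, 2 and 3 and -0.00498, 0.05 and 0.06 in wild type.

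**Figure D4:**
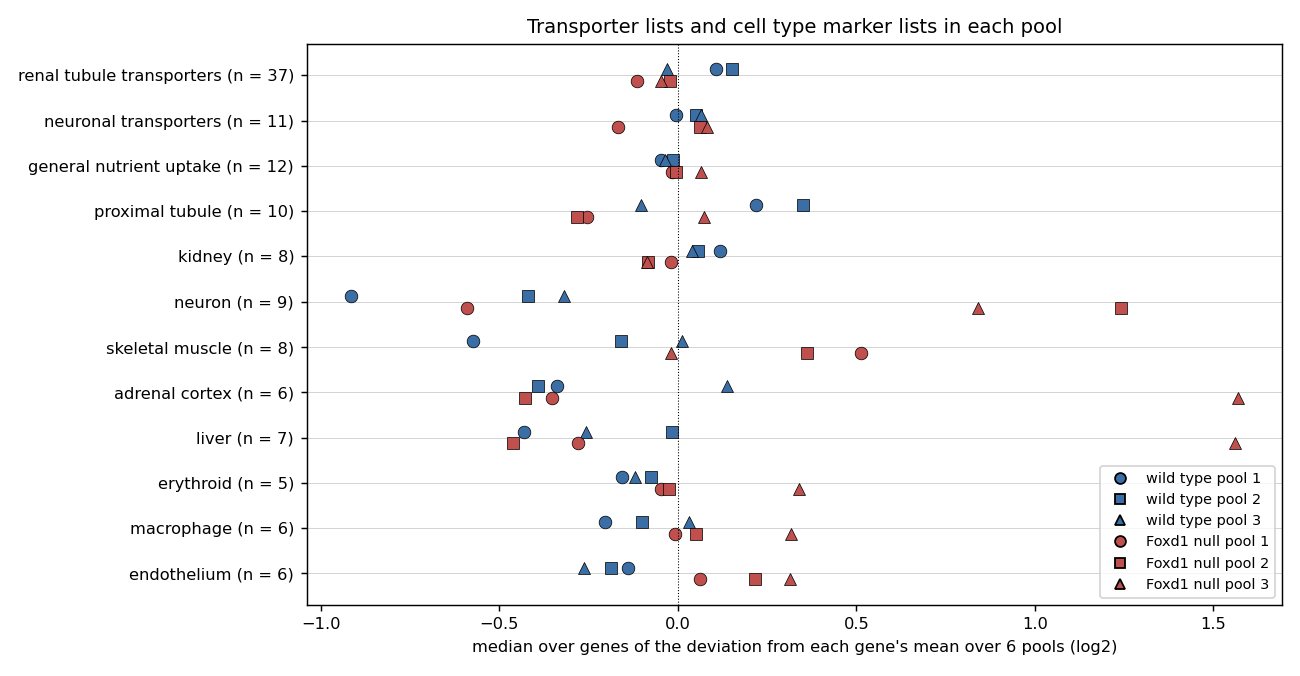
Median over genes of the deviation from each gene's mean over the 6 pools (x axis, log2) for 3 transporter lists and 9 marker lists (y axis), with blue for wild type, red for Foxd1 null and 1 symbol shape per pool number. Wild type pool 3 lies among the null pools on the renal tubule list at -0.03, while adrenal and liver markers stand at 1.57 and 1.56 in null pool 3 alone.

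Several carriers need partner proteins to reach or stay in the membrane. Of 10 measured partners and scaffolds 2 fell (20%, against 0.767% of all genes), 0 rose and 8 did not pass. The median was -0.27, and 9 lay below 0. In 6 (60%) all null pools lay below all wild type pools, against 8.04% of all genes, and in 0 above, against 11.5%. An unadjusted p under 0.05 in limma was reached by 6 (60%), against 14.1% of all genes. Cltrn, or collectrin, which brings Slc6a19 and its relatives to the brush border, stood at 5.25, 5.56 and 4.702 in null and 7.14, 6.99 and 6.46 in wild type pools. It fell by 1.69 (SE 0.22, adjusted p = 0.00431), while Slc6a19 itself differed by -0.20. Pdzk1, a scaffold that binds Slc34a1 and organic anion and cation carriers under the brush border, fell by 0.94 (SE 0.14, adjusted p = 0.00969). Pdzk1 also stands on the proximal tubule marker list and is counted in both. The heavy chain Slc3a2, partner of Slc7a6 and other amino acid exchangers, differed by -0.07 (SE 0.09).

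Of 21 other tubule carriers and pump subunits 3 fell (14.3%, against 0.767% of all genes), 0 rose and 18 did not pass. The median was 0.03, with 11 above 0 and 10 below. In 7 (33.3%) all null pools lay below all wild type pools, against 8.04% of all genes, and in 0 above, against 11.5%. An unadjusted p under 0.05 in limma was reached by 8 (38.1%), against 14.1% of all genes. The peptide transporter Slc15a2 fell by 1.29 (SE 0.16, adjusted p = 0.00294), with null pools at 5.57, 5.87 and 5.47 and wild type pools at 7.04, 7.17 and 6.57. The sodium pump, which sets the gradient that drives most of these carriers, had its subunit Atp1b1 lower by 1.11 (difference -1.11, SE 0.16, adjusted p = 0.00749) and its regulator Fxyd2 lower by 0.81 (difference -0.81, SE 0.13, adjusted p = 0.0106). Atp1b1 stood at 8.98, 9.06 and 8.96 in null and 10.41, 10.25 and 9.66 in wild type pools. Without 1 of the pools Fxyd2 lost its call (adjusted p up to 0.0568), and Slc15a2 and Atp1b1 kept theirs in all 6 such fits.

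Of 8 measured regulators of the tubule and of phosphate 1 fell (12.5%, against 0.767% of all genes), Hnf4a, a nuclear receptor that proximal tubule cells need to mature. It stood at 6.97, 6.90 and 6.84 in null and 7.87, 7.80 and 7.50 in wild type pools, with no overlap. The difference was -0.82 (SE 0.10, adjusted p = 0.00327). Of the 8 regulators 7 lay below 0. In 4 (50%) all null pools lay below all wild type pools, against 8.04% of all genes, and in 0 above, against 11.5%. An unadjusted p under 0.05 in limma was reached by 3 (37.5%), against 14.1% of all genes. The phosphate hormone genes Kl, the co-receptor of FGF23, and Pth1r, the receptor of parathyroid hormone, differed by -0.02 (SE 0.07) and -0.04 (SE 0.08).

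**Figure D5:**
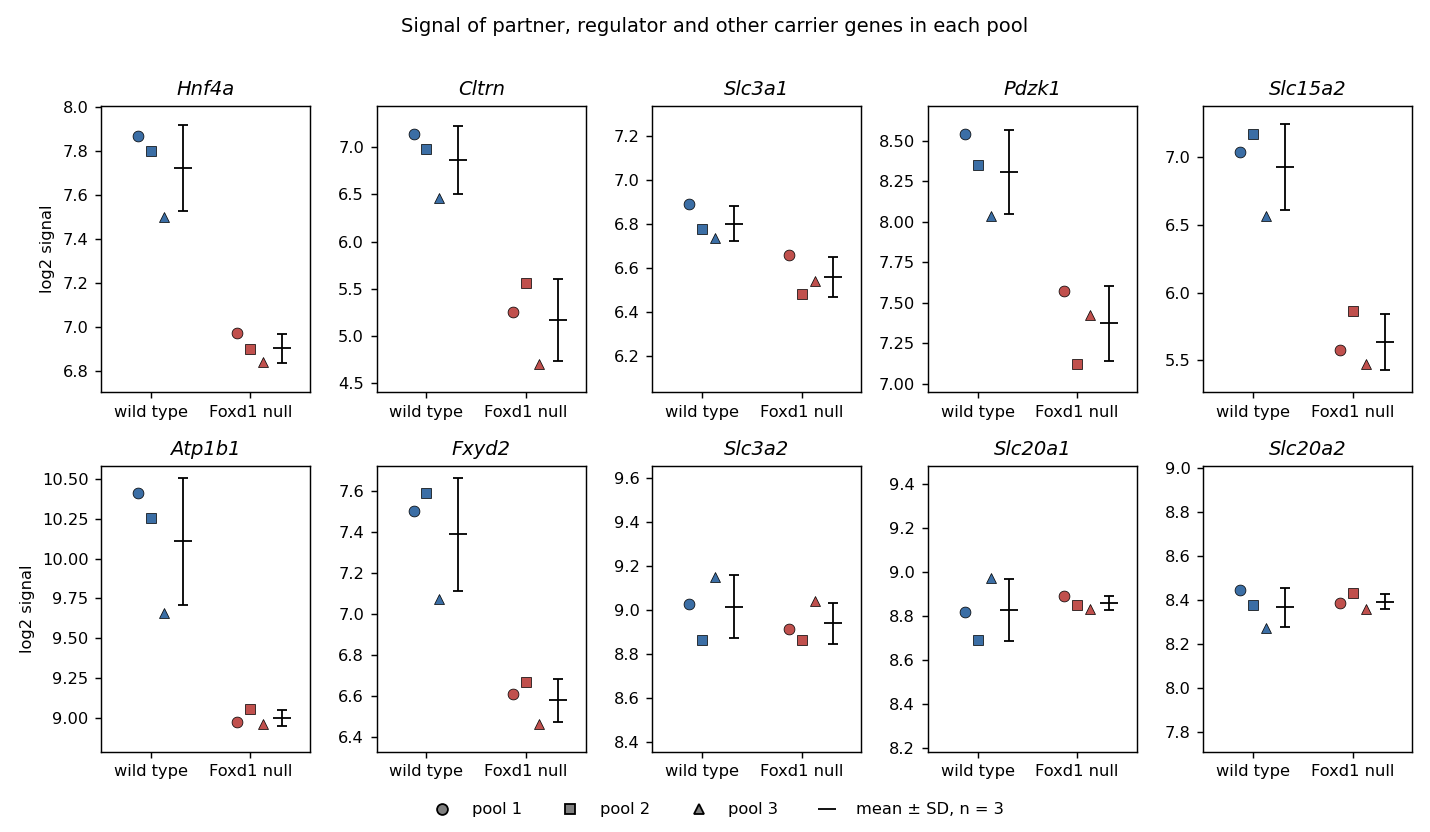
Log2 signal (y axis, scaled separately per gene) of Hnf4a, 4 partner genes and 5 other carrier or pump genes in each pool, 1 symbol shape per pool number, with the mean ± SD of 3 pools in black. Hnf4a, Cltrn, Pdzk1, Slc15a2, Atp1b1 and Fxyd2 fall without overlap, with wild type pool 3 the lowest wild type pool in each, while Slc3a2, Slc20a1 and Slc20a2 overlap.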

How the data were processed

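The values tested are the deposited log2 values of the authors, 1 column per pool, from an Affymetrix gene array. Each array took 50 ng of RNA, per the labels' protocols. How the arrays were summarised and normalized, and with which program, the sources used here leave unstated. That the scale is log2 was read from the values: the slope of the differences on the natural log medians of the authors' deposited table was 1.43 over 440 genes, where 1 over ln 2 is 1.443. That table also holds a signed linear fold and p-values, whose test is not stated, so the authors' p-value is quoted only as deposited. Medians of the 6 arrays lay between 6.984 and 7.057, and the number of arrays limits the precision (median SE 0.086).

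Rows were named through the platform annotation, where 21789 of 35556 rows had 1 symbol, 1621 several and 12146 none. The row with the highest mean was kept per gene. The 2 genotypes were fitted over all 6 pools with lmFit and eBayes of limma 3.58.1 (R 4.3.3), genotype being the only term, with Benjamini-Hochberg adjustment over 19938 genes. All differences are null minus wild type in log2 units, with the model's SE, and intervals are at 95%. No exact test was used, since with 3 pools a side its smallest two-sided p is 0.1. The same functions were tested on simulated data. Promoters were searched with Python 3.11.15.

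Some genes and a motif are not reported here. Members and lists were chosen with earlier results of these data known. Named by rule were the members past the threshold, in each other family the member with the largest difference, the brightest row of each family, and 13 renal transporters fixed by name, which gave 26 genes. Alternatives were a replicate block, other variance models, array weights, 2 normalizations, a filter on dim rows, the mean of rows, all rows tested together, and each pool left out.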

Additional observations from a re-analysis of the deposited data

How the results depend on the processing

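With limma, testing all 35556 rows together left 0 members higher and 0 lower, 0 of the renal tubule list among them, with 3 members higher and 12 lower at an unadjusted p under 0.05. Of 19938 genes 61 rose and 29 fell there, and the adjusted p of Slc5a1, Slc34a1, Slc6a13, Slc7a9 and Slc16a3 was 0.0613, 0.145, 0.188, 0.191 and 0.131. Array weights, the intensity trend with robust variance, and leaving out the dimmest 25% of genes each gave 2 members higher, Slc16a3 and Slc7a2. Array weights, the intensity trend with robust variance, median centring and quantile normalization each gave 5 lower, Slc16a12 being added. Leaving out the dimmest 25% gave 4 lower, with Slc16a12 in place of Slc5a1, whose row that filter removed. Leaving out 1 pool at a time gave 0 to 2 members higher, 1 to 5 lower, and 1 to 4 of the tubule list lower. The fits with 0 higher were those without null pool 2 or 3 or any wild type pool. Those with 1 lower (Slc5a1) left out null pool 1 or 3 or wild type pool 1 or 2, and that without null pool 2 had 2. The replicate block gave 1 higher, Slc7a14 in place of Slc16a3 (adjusted p 0.052), and 3 lower, without Slc6a13 (adjusted p 0.062). The deviations of same-numbered pools correlated at 0.125, 0.0677 and 0.0533, and 6 of 6 pools were closest to their own number, a hint from the data and not from the design. Differences near 0 changed sign when 1 pool was left out. Slc5a2 ranged from -3.17e-05 (without null pool 2) to 0.0853. Slc5a3 ranged from -0.0848 to 0.0682, above 0 without null pool 2 (0.00816), null pool 3 (0.00803) or wild type pool 1. Slc6a6 ranged from -0.0252 to 0.112, below 0 without null pool 3 or wild type pool 1 (-0.0151). Slc7a6 ranged from -0.0782 to 0.0553, above 0 without null pool 2 or wild type pool 3 (0.0153). Slc13a4 ranged from -0.0733 to 0.0549, above 0 without null pool 2 or wild type pool 2 (0.0193). No sign changed among the 5 members past the threshold. The causes were not tested. The dimness of most rows limits what can be seen.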
